A study of Mus musculus with 8 samples.

Results

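The 35 genes described here encode enzymes of glycolysis and of the pentose phosphate pathway (PPP), the E1 subunits of pyruvate dehydrogenase (PDH) and the kinases that switch it off, together with HIF-1α (*Hif1a*), the prolyl hydroxylases *Egln1* and *Egln3*, and the growth factor *Vegfa*. The genes were taken by name as a functional group and not by a cut-off on any measured value, though with earlier results of these data known. All 35 were found among the 50615 genes of the table, and all 35 were among the 17625 genes that passed the filter on low counts. The cells were bone marrow-derived macrophages (BMDMs), obtained by culturing marrow for 6 days with the growth factor M-CSF at 20 ng/ml. All mice were C57BL/6 animals with floxed *Ncoa6*, the gene of a nuclear receptor coactivator. *Ncoa6*-sufficient BMDMs came from *Ncoa6* fl/fl mice without Cre, which the labels call WT. *Ncoa6*-KO BMDMs came from *Ncoa6* fl/fl LysM CRE mice, in which the lysozyme 2 locus (*Lyz2*, or LysM) drives Cre recombinase in myeloid cells. Both genotypes were studied with medium alone, called unstimulated here, and after 4 h of priming with 100 ng/ml LPS, a ligand of Toll-like receptor 4, followed by 2 h with 200 µg/ml of monosodium urate (MSU) crystals. The 4 groups held 2 libraries each, from different mice within a group. The age and sex of the mice, and whether both conditions used the same mice, were not given in the sources used here. LPS and MSU were always given together, so their effects cannot be told apart.

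Expected counts summed to between 25281955 and 33673552 per library. They were scaled by edgeR's TMM factors to a common library size of 29332189 and are given as normalized counts, and a gene was called when its Benjamini-Hochberg adjusted p over the 17625 genes, from edgeR's quasi-likelihood test of all 4 groups, was under 0.05. With 2 libraries a group, the smallest p that an exact permutation test allows is 0.333, so every p of a single gene borrows its spread from all genes and groups (median biological coefficient of variation 0.114). *Ncoa6* (ENSMUSG00000038369, chr2:155390656-155473894 of GRCm38, reverse strand) measured 1515 and 1405 normalized counts in unstimulated *Ncoa6*-sufficient BMDMs, where *Ncoa6*-KO BMDMs had 784 and 622, and 1297 and 1173 against 563 and 526 with LPS + MSU, so the genotypes did not overlap. The 7 macrophage markers, *Adgre1*, *Csf1r*, *Cd68*, *Mertk*, *Lyz2*, *Itgam* and *Cd14*, summed to 385687 to 543769 normalized counts per *Ncoa6*-sufficient library and 248235 to 379984 per *Ncoa6*-KO library. *Lyz2*, the locus that drives Cre in the *Ncoa6*-KO mice, was the largest part of these sums in every library. It was called lower in *Ncoa6*-KO BMDMs unstimulated (log2 fold change -1.01, edgeR adjusted p = 0.0172) and with LPS + MSU (-0.95, 0.0142). So were *Cd14* unstimulated (-0.78, 0.0298) and *Itgam* with LPS + MSU (-0.51, 0.0412). *Adgre1*, *Csf1r*, *Cd68* and *Mertk* were not called between genotypes. Markers of T and NK cells summed to 0 to 2.77, of erythroid cells to 0 to 1.76 and of B cells to 0.751 to 11.1, and the neutrophil marker *Ly6g* was at 0 in 7 of 8 libraries. Some marker sums moved with the stimulus. Those of dendritic cells were 11.2 to 17.3 in unstimulated and 106 to 176 in stimulated libraries, where *Xcr1* made up most of the sum, those of neutrophils 360.1 to 439 and 693 to 887, and those of stromal cells 140.4 to 457 and 333 to 950.4. With LPS + MSU 4 of 6 neutrophil and 2 of 5 stromal markers tested rose in each genotype, 1 and 2 of 3 dendritic markers did, and of the 7 macrophage markers 3 rose in each and 1 fell in *Ncoa6*-sufficient BMDMs. The part of these cells in the stimulus changes given below was not tested. In bulk RNA of this kind, fewer cells of a type and less RNA per cell cannot be told apart. For *Lyz2*, neither can be told from an effect of Cre at that locus.

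Glycolysis splits glucose into pyruvate in a chain of steps, of which the first phosphorylation by hexokinase and the phosphofructokinase (PFK) step are the main points of control. Pyruvate is then turned into lactate by lactate dehydrogenase (LDH) or enters mitochondria through PDH, which PDH kinases (PDK) inhibit by phosphorylation. The PPP branches off after the hexokinase step and yields NADPH and pentoses, and HIF-1, whose α subunit is marked for destruction by EGLN prolyl hydroxylases when oxygen is present, is a transcription factor for many of these genes. Macrophages given LPS are known for a rise in glycolysis, with stabilization of HIF-1α as part of it.

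With LPS + MSU, the hexokinase genes, 2 of 3 PFK genes and *Pfkfb3* rose, while 6 of the 9 genes of lower glycolysis passed the test in neither genotype. The hexokinases *Hk1*, *Hk2* and *Hk3*, the phosphofructokinases *Pfkl* and *Pfkp*, the PFK activator *Pfkfb3*, the PPP genes *Pgd* and *Rpe*, the kinase *Pdk3*, *Pgk1* and *Hif1a* rose in both genotypes. *Pfkm*, *Pfkfb4*, *Ldhb*, *Pdk1*, *Pdk2*, *Egln1*, *Egln3* and *Vegfa* fell in both. Log2 fold changes in *Ncoa6*-sufficient BMDMs ran from -2.45 for *Egln3* to 3.02 for *Pfkfb3*. In *Ncoa6*-sufficient BMDMs 11 members rose and 10 fell, 21 of 35, beside 55.2% of all genes tested, 24.7% higher and 30.5% lower. In *Ncoa6*-KO BMDMs 13 rose and 8 fell, again 21 of 35, beside 53.1% of all genes tested, 25.2% higher and 27.9% lower. The number of members called was thus near that of genes in general, and the median log2 fold change of the members was 0.12 and 0.18 in the respective genotypes, beside -0.12 and -0.07 over all genes tested. *Aldoc* and *Pgls* were called in *Ncoa6*-sufficient BMDMs alone and *Gapdh* and *Tkt* in *Ncoa6*-KO BMDMs alone, and no difference between genotypes was called for any of the 4 (interaction, adjusted p between 0.839 and 0.981 from edgeR). The other 12 members, *Gpi1*, *Aldoa*, *Tpi1*, *Pgam1*, *Eno1*, *Eno3*, *Pkm*, *Ldha*, *Pdha1*, *Pdhb*, *Taldo1* and *Rpia*, were called in neither genotype.

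**Figure D1:**
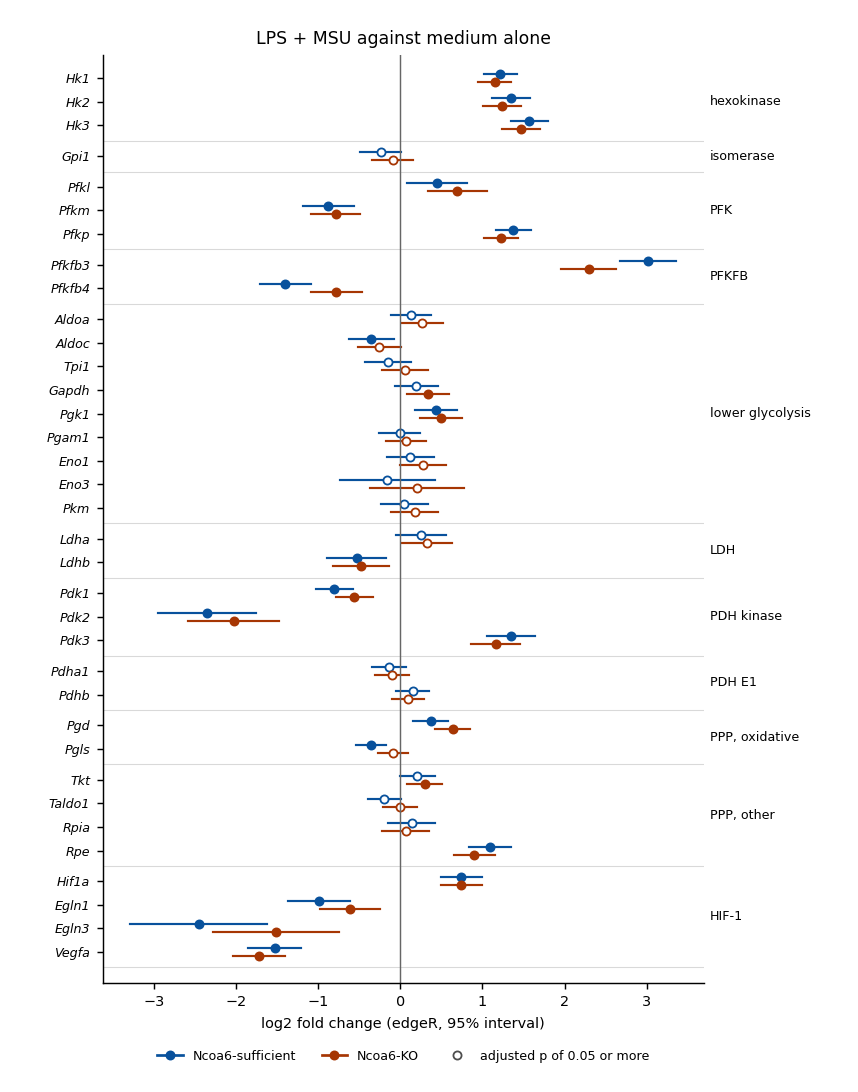
Log2 fold change of LPS + MSU against medium alone for the 35 members, by role, in *Ncoa6*-sufficient (blue) and *Ncoa6*-KO (orange) BMDMs, with edgeR's 95% interval and open circles where the adjusted p is 0.05 or more. *Pfkfb3* lies farthest to the right at 3.02 and 2.29, *Egln3* and *Pdk2* lie farthest to the left in *Ncoa6*-sufficient BMDMs, and most lower glycolysis members lie near 0.

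The direction of the smaller changes depended on how libraries were scaled. TMM factors were 1.23 to 1.29 in libraries with medium alone and 0.766 to 0.829 in those with LPS + MSU. Scaling by total counts alone, an alternative chosen after the data were seen, shifted the median log2 fold change of all genes by -0.66 in *Ncoa6*-sufficient BMDMs and by -0.63 in *Ncoa6*-KO BMDMs. With it 7 members were called higher and 25 lower in the former, beside 14.2% and 54.8% of all genes tested, and 6 higher and 22 lower in the latter, beside 14.4% and 52.8%, so the excess of lower calls was general. The size factors of DESeq2, used in edgeR, shifted that median by 0.11 and 0.06, and gave 15 higher and 9 lower members without the knockout (beside 28.2% and 26.8% of all genes) and 16 higher and 8 lower with it (beside 27.1% and 25.9%). Of the 21 members called, 17 kept their direction and call under total counts alone in the former genotype and 14 in the latter. *Hk1*, *Hk2*, *Hk3*, *Pfkp*, *Pfkfb3* and *Pdk3* were higher with LPS + MSU under every scaling in both genotypes, with log2 fold changes of at least 0.52 under total counts alone, and the 8 members that fell in both genotypes were lower under every scaling. *Hif1a* was no longer called, at 0.07 and 0.11. In *Ncoa6*-sufficient BMDMs 11 members turned from higher to lower, namely *Pfkl*, *Pgk1* and *Pgd*, at -0.23, -0.24 and -0.30, and *Aldoa*, *Gapdh*, *Eno1*, *Pkm*, *Ldha*, *Pdhb*, *Tkt* and *Rpia*, which were not called under TMM and came to lie between -0.62 and -0.41. In *Ncoa6*-KO BMDMs 12 members turned, namely *Gapdh*, *Pgk1* and *Tkt*, at -0.30, -0.14 and -0.34, and *Aldoa*, *Tpi1*, *Pgam1*, *Eno1*, *Eno3*, *Pkm*, *Ldha*, *Pdhb* and *Rpia*, which were not called under TMM and came to lie between -0.58 and -0.30. *Gpi1*, *Pdha1* and *Taldo1*, below 0 but not called under TMM in either genotype, were called lower in both under total counts alone. They came to lie at -0.91, -0.81 and -0.87 in *Ncoa6*-sufficient and at -0.73, -0.74 and -0.64 in *Ncoa6*-KO BMDMs. Changes given below are relative to TMM scaling.

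The sum over the members likewise depended on the scaling. The 35 members took 1.11 to 1.26% of all counts in unstimulated and 0.939 to 1.06% in stimulated libraries, while their summed normalized counts were 259692 to 301233 and 341624 to 374990.0. The 8 hexokinase, PFK and PFKFB members took 0.10 to 0.105% of all counts in unstimulated and 0.167 to 0.173% in stimulated libraries, so that their share was larger in every stimulated library without any scaling factor. The 9 members of lower glycolysis, from aldolase to pyruvate kinase, took a smaller share with the stimulus, 0.721 to 0.847% in unstimulated and 0.554 to 0.649% in stimulated libraries, whereas their summed normalized counts were larger with it in each genotype. These were 201862 and 194082 without and 223843 and 210602 with the stimulus in *Ncoa6*-sufficient BMDMs, and 168879 and 191104 without and 201530.0 and 229485 with it in *Ncoa6*-KO BMDMs.

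**Figure D2:**
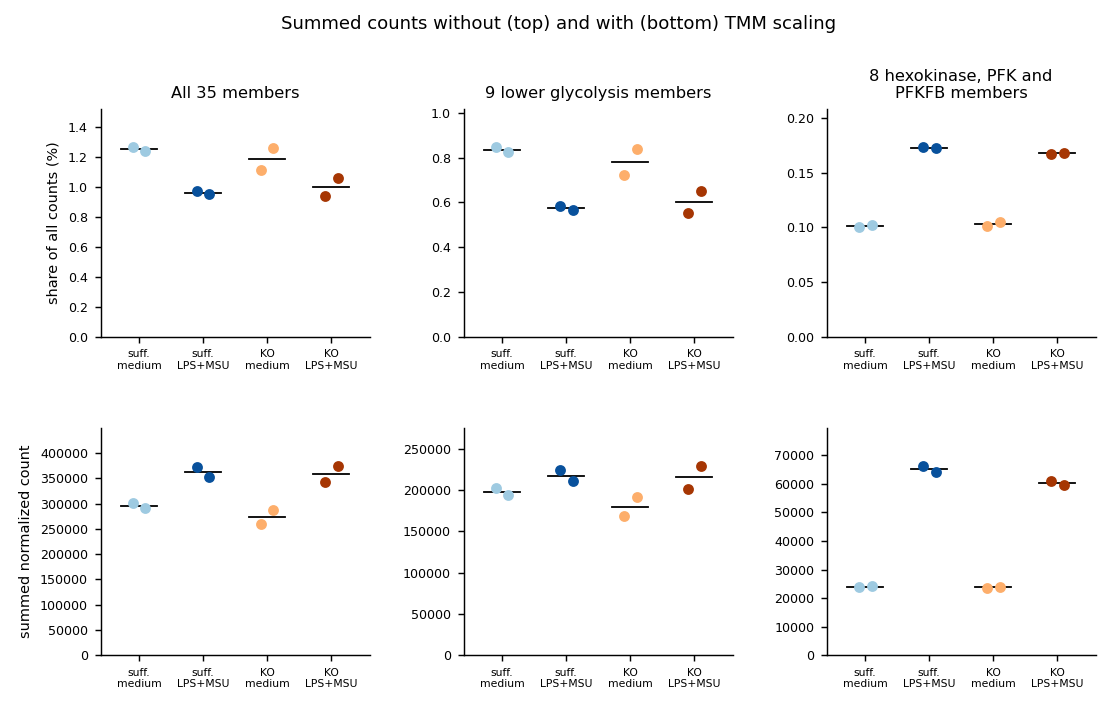
Summed counts of all 35 members, of the 9 lower glycolysis members and of the 8 hexokinase, PFK and PFKFB members in each library, as a share of all counts in percent (top) and as normalized counts after TMM scaling (bottom), with a line at the mean of 2 libraries. The sum of the 8 hexokinase, PFK and PFKFB members is higher with LPS + MSU in both rows. *Hk3* is its largest part, and *Pfkm* and *Pfkfb4* each fell. The sums of the 35 members and of the 9 of lower glycolysis are lower with LPS + MSU in the top row and higher in the bottom row.

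All 3 hexokinase members rose with LPS + MSU in both genotypes. These enzymes phosphorylate glucose and so hold it in the cell. *Hk3* (ENSMUSG00000025877, chr13:55005985-55021385 of GRCm38, reverse strand) was the main hexokinase of these cells, with 3582 normalized counts per kb of exon in *Ncoa6*-sufficient BMDMs with medium alone, beside 380.2 for *Hk1* and 129.9 for *Hk2*. Per library, the normalized counts of *Hk3* were 13029 and 13351 in unstimulated and 39028 and 39319 in stimulated *Ncoa6*-sufficient BMDMs. In *Ncoa6*-KO BMDMs these counts were 13178 and 12956 without and 36972 and 35288 with the stimulus. Every stimulated library was above every library with medium alone, and the log2 fold changes were 1.57 (standard error 0.104, adjusted p = 2.01e-07) and 1.47 (standard error 0.103, adjusted p = 3.62e-07). *Hk1*, a hexokinase bound to mitochondria, had normalized counts of 3285 and 3203 in unstimulated and 7556 and 7507 in stimulated *Ncoa6*-sufficient BMDMs. *Ncoa6*-KO BMDMs had 3041 and 3161 without and 7125 and 6646 with the stimulus. Its log2 fold changes were 1.22 (standard error 0.0907) and 1.15 (standard error 0.0906), with no overlap between conditions. *Hk2*, the inducible hexokinase, had 796 and 754 in unstimulated and 1941 and 2007 in stimulated *Ncoa6*-sufficient BMDMs. The *Ncoa6*-KO libraries held 704 and 820.2 without and 1669 and 1917 with the stimulus. The groups did not overlap, and the log2 fold changes were 1.35 (standard error 0.106) and 1.24 (standard error 0.106). The adjusted p of *Hk1* and *Hk2* in edgeR lay between 5.43e-07 and 1.88e-06. The make-up of the family hardly moved, since *Hk3* held 87.2% to 88.3% of the family's counts per kb in unstimulated and 89.7% to 90.0% in stimulated libraries. *Gpi1*, the isomerase of the next step, was not called, with log2 fold changes of -0.24 (95% interval -0.49 to 0.01) and -0.09 (-0.34 to 0.16).

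The PFK genes moved in opposite directions. *Pfkp*, the platelet type, rose, *Pfkm*, the muscle type, fell, and *Pfkl*, the liver type, had a smaller rise. Normalized counts of *Pfkp* were 3091 and 3206 in unstimulated and 8522 and 7832 in stimulated *Ncoa6*-sufficient BMDMs. For *Ncoa6*-KO BMDMs the values were 3203 and 3346 without and 7844 and 7478 with the stimulus. Its stimulated libraries were all above those with medium alone, and the log2 fold changes were 1.38 (standard error 0.0947, adjusted p = 2.79e-07) and 1.23 (standard error 0.0943, adjusted p = 7.47e-07). *Pfkm* had 418 and 428 in unstimulated and 199 and 262 in stimulated *Ncoa6*-sufficient BMDMs. Counts in *Ncoa6*-KO BMDMs were 539 and 522 without and 290.1 and 326 with the stimulus. Here every stimulated library was below every library with medium alone, with log2 fold changes of -0.88 (standard error 0.139, adjusted p = 0.000242) and -0.79 (standard error 0.134, adjusted p = 0.00045). *Pfkl* had 1707 and 1595 in unstimulated and 2233 and 2257 in stimulated *Ncoa6*-sufficient BMDMs. The corresponding *Ncoa6*-KO values were 1300.0 and 1674 without and 1954 and 2859.8 with the stimulus. All stimulated libraries were above all unstimulated ones, although replicates of *Ncoa6*-KO BMDMs differed widely. The log2 fold changes of *Pfkl* were 0.44 (standard error 0.165, adjusted p = 0.0398) and 0.70 (standard error 0.165, adjusted p = 0.0041). The first call was lost without any one of the 4 *Ncoa6*-sufficient libraries (adjusted p 0.0768 to 0.163) and the second without *Ncoa6*-KO LPS + MSU library 2 (log2 fold change 0.40, adjusted p 0.0536). Under total counts alone *Pfkl* was at -0.23 and 0.06. As a share of the family's counts per kb, which needs no scaling between libraries, *Pfkp* held 37.7% to 40.2% in unstimulated and 51.5% to 61.7% in stimulated libraries, and *Pfkm* held 20.5% to 27.1% and 5.80% to 9.0%.

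*Pfkfb3* had the largest rise of the 35 members in both genotypes, and *Pfkfb4* fell. Both encode enzymes that make and break down fructose 2,6-bisphosphate, the strongest activator of PFK, and PFKFB3 is known for a high kinase activity. *Pfkfb3* (ENSMUSG00000026773, chr2:11471433-11554077 of GRCm38, reverse strand) had normalized counts of 684 and 688 in unstimulated and 6571 and 4529 in stimulated *Ncoa6*-sufficient BMDMs. In *Ncoa6*-KO BMDMs these counts were 927 and 969 without and 4583 and 4697 with the stimulus. The conditions were far apart in both genotypes, although the stimulated *Ncoa6*-sufficient libraries differed from each other. The log2 fold changes of *Pfkfb3* were 3.02 (standard error 0.155, adjusted p = 2.89e-08) and 2.29 (standard error 0.15, adjusted p = 2.03e-07), which are 8.09-fold and 4.89-fold. *Pfkfb4* had 926 and 835 in unstimulated and 319 and 349.8 in stimulated *Ncoa6*-sufficient BMDMs. *Ncoa6*-KO BMDMs had 704 and 562 without and 406 and 333 with the stimulus. All its stimulated libraries were below those with medium alone, with log2 fold changes of -1.40 (standard error 0.142, adjusted p = 7.02e-06) and -0.78 (standard error 0.141, adjusted p = 0.000704). Of the counts per kb of the 4 PFKFB genes, *Pfkfb3* held 25.6% to 39.9% in unstimulated and 83.9% to 89.9% in stimulated libraries, and *Pfkfb4* held 35.8% to 53.7% and 6.76% to 11.5%. The leading gene of the family thus changed in *Ncoa6*-sufficient BMDMs, from *Pfkfb4* to *Pfkfb3*, while in unstimulated *Ncoa6*-KO BMDMs the shares of *Pfkfb3* (34.8% and 39.9%) and *Pfkfb4* (41.0% and 35.8%) were closer to each other.

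**Figure D3:**
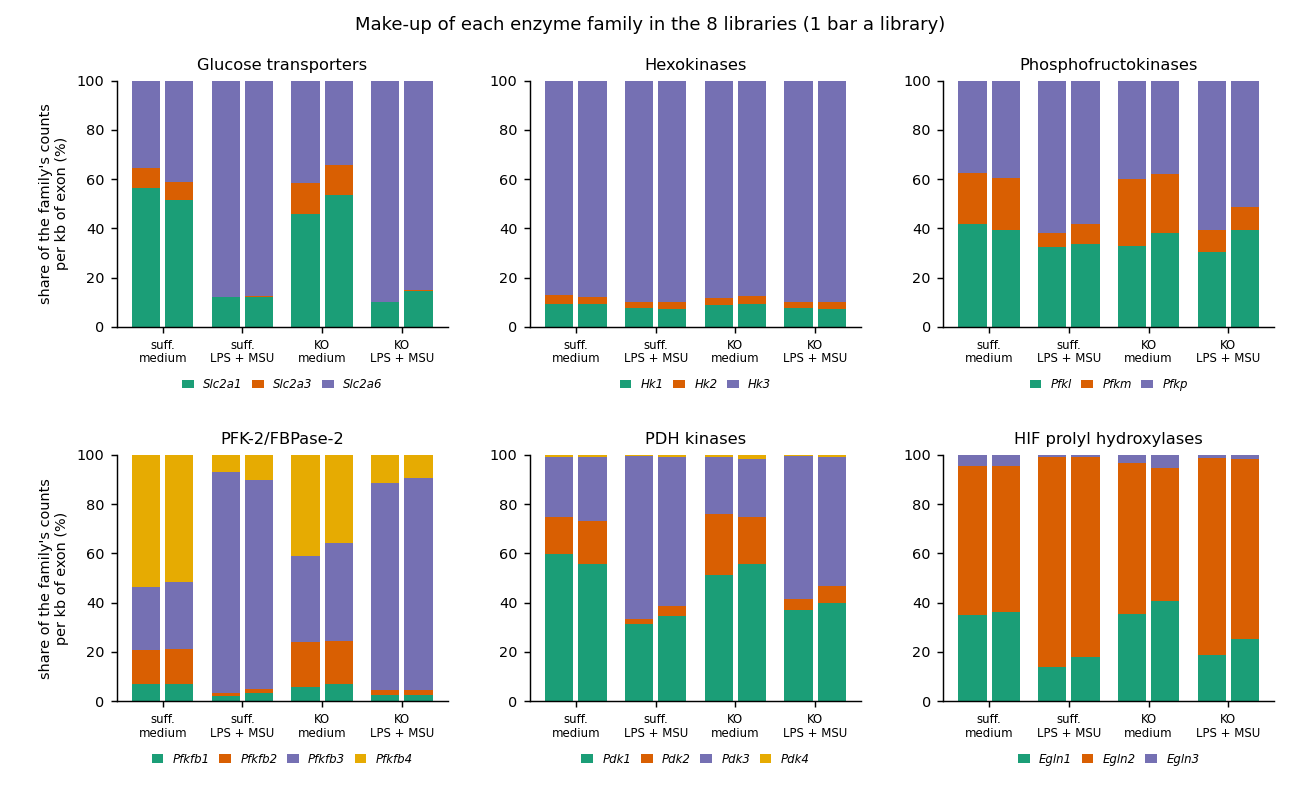
Share of each gene in the counts per kb of exon of its enzyme family, in percent, in the 8 libraries (1 bar a library), for glucose transporters, hexokinases, PFK, PFKFB, PDH kinases and HIF prolyl hydroxylases. With LPS + MSU *Slc2a6*, *Hk3*, *Pfkp*, *Pfkfb3*, *Pdk3* and *Egln2* hold the largest share of their family's counts per kb in every library. *Hk3* and *Egln2* also hold it in every library with medium alone, and the hexokinase bars change little.

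Lower glycolysis, which runs from aldolase to pyruvate kinase, stood out for its high level and small changes. Of its 9 members, *Pgk1* rose in both genotypes, *Gapdh* rose in *Ncoa6*-KO BMDMs and *Aldoc* fell in *Ncoa6*-sufficient BMDMs, and the rest were not called. *Gapdh* had 12443 normalized counts per kb in *Ncoa6*-sufficient BMDMs with medium alone and was followed by *Aldoa* with 10172, *Pkm* with 9918, *Pgk1* with 8354 and *Pgam1* with 7562, while *Eno3*, the muscle enolase, had 40.8. *Pkm*, pyruvate kinase, had normalized counts of 50499 and 48705 in unstimulated and 52863 and 49812 in stimulated *Ncoa6*-sufficient BMDMs. The *Ncoa6*-KO libraries held 41790.5 and 48271 without and 46457 and 55383 with the stimulus. The conditions overlapped in both genotypes, and the log2 fold changes were 0.05 (95% interval -0.24 to 0.34, adjusted p = 0.772) and 0.18 (-0.11 to 0.46, adjusted p = 0.276). For *Pgk1*, the first enzyme that yields ATP, the log2 fold changes were 0.43 (standard error 0.117, adjusted p = 0.00817) and 0.50 (standard error 0.117, adjusted p = 0.00402). Without *Ncoa6*-sufficient medium library 2 the first was 0.36 with adjusted p = 0.0702. *Gapdh*, often used as a reference gene, had log2 fold changes of 0.20 (adjusted p = 0.181) and 0.34 (adjusted p = 0.0311), and the second call was lost without *Ncoa6*-KO medium library 1 (adjusted p 0.135) or either *Ncoa6*-KO LPS + MSU library (0.068 and 0.167). Log2 fold changes of the 9 members lay between -0.35 and 0.43 in *Ncoa6*-sufficient BMDMs, and the 95% interval of 6 of the 9 stayed within a 1.5-fold change in either direction in each genotype. With total counts alone *Pkm* was lower with LPS + MSU, at -0.62 and -0.46, as were *Gapdh*, at -0.48 and -0.30, and *Pgk1*, at -0.24 and -0.14. Glycolytic genes have processed copies elsewhere in the genome, and of 21 genes of the table named as copies of a member 13 had no counts and none had more than 0.885% of the member's counts.

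At the pyruvate branch, *Ldhb* fell, *Ldha* was not called, and the PDH kinases moved apart. LDH-A makes lactate from pyruvate, and LDH-B is the form known for the reverse reaction. *Ldha* had normalized counts of 18285 and 16619 in unstimulated and 21787 and 19951 in stimulated *Ncoa6*-sufficient BMDMs. For *Ncoa6*-KO BMDMs the values were 13823 and 16661 without and 17047 and 21265 with the stimulus. Within each genotype the conditions did not overlap, by a narrow margin in *Ncoa6*-KO BMDMs, with log2 fold changes of 0.26 (95% interval -0.05 to 0.56, adjusted p = 0.137) and 0.33 (0.03 to 0.63, adjusted p = 0.0652). DESeq2 called *Ldha* higher in both genotypes, at 0.37 (adjusted p = 0.0135) and 0.39 (adjusted p = 0.0102), and under total counts alone it was lower, at -0.41 and -0.30. *Ldhb* had only 140.3 and 133 in unstimulated and 91.4 and 97.8 in stimulated *Ncoa6*-sufficient BMDMs. Counts in *Ncoa6*-KO BMDMs were 199.5 and 177 without and 133 and 137 with the stimulus. Its stimulated libraries were below those with medium alone within each genotype, with log2 fold changes of -0.53 (standard error 0.163, adjusted p = 0.0166) and -0.48 (standard error 0.154, adjusted p = 0.0221). DESeq2 did not call either (adjusted p = 0.182 and 0.165), and the first was lost without *Ncoa6*-sufficient medium library 1 (adjusted p = 0.078) or LPS + MSU library 1 or 2 (0.118 and 0.0633). The second was lost without the libraries of the same numbers in *Ncoa6*-KO BMDMs (0.121, 0.084 and 0.0647). *Ldha* held 97.0% to 98.4% of the counts per kb of both genes in unstimulated and 98.4% to 99.1% in stimulated libraries.

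Among the PDH kinases, *Pdk3* rose and *Pdk1* and *Pdk2* fell in both genotypes, and the PDH subunits were not called. *Pdk3* had normalized counts of 275 and 265 in unstimulated and 774 and 599 in stimulated *Ncoa6*-sufficient BMDMs. The corresponding *Ncoa6*-KO values were 227 and 222 without and 524 and 479.9 with the stimulus. The conditions did not overlap, with log2 fold changes of 1.35 (standard error 0.134, adjusted p = 5.81e-06) and 1.16 (standard error 0.137, adjusted p = 2.56e-05). *Pdk1*, a known HIF-1 target, had 2020.4 and 1731 in unstimulated and 1108 and 1043 in stimulated *Ncoa6*-sufficient BMDMs. In *Ncoa6*-KO BMDMs these counts were 1518 and 1618 without and 1017 and 1107 with the stimulus. Every stimulated library was below every library with medium alone, and the log2 fold changes were -0.80 (standard error 0.102, adjusted p = 4.32e-05) and -0.56 (standard error 0.102, adjusted p = 0.000695). *Pdk2* had 204 and 219 in unstimulated and 31.9 and 51.0 in stimulated *Ncoa6*-sufficient BMDMs. *Ncoa6*-KO BMDMs had 299 and 225 without and 49.7 and 79.7 with the stimulus. This was the deepest fall of any member in *Ncoa6*-KO BMDMs and came next to that of *Egln3* in *Ncoa6*-sufficient BMDMs, with log2 fold changes of -2.35 (standard error 0.271, adjusted p = 1.94e-05) and -2.02 (standard error 0.25, adjusted p = 3.71e-05). *Pdk1* held 51.2% to 59.8% of the counts per kb of the 4 *Pdk* genes in unstimulated and 31.2% to 39.8% in stimulated libraries, and *Pdk3* held 23.3% to 26.0% and 52.4% to 66.3%. The lead of *Pdk3* rests on the division by exon length, since *Pdk1* had more normalized counts in every library. *Pdha1* and *Pdhb*, which encode the E1 subunits that the kinases act on, had log2 fold changes between -0.13 and 0.15 in both genotypes, and their 95% intervals stayed within a 1.5-fold change. Under total counts alone both were called lower in both genotypes, *Pdha1* at -0.81 and -0.74 and *Pdhb* at -0.52 and -0.54.

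**Figure D4:**
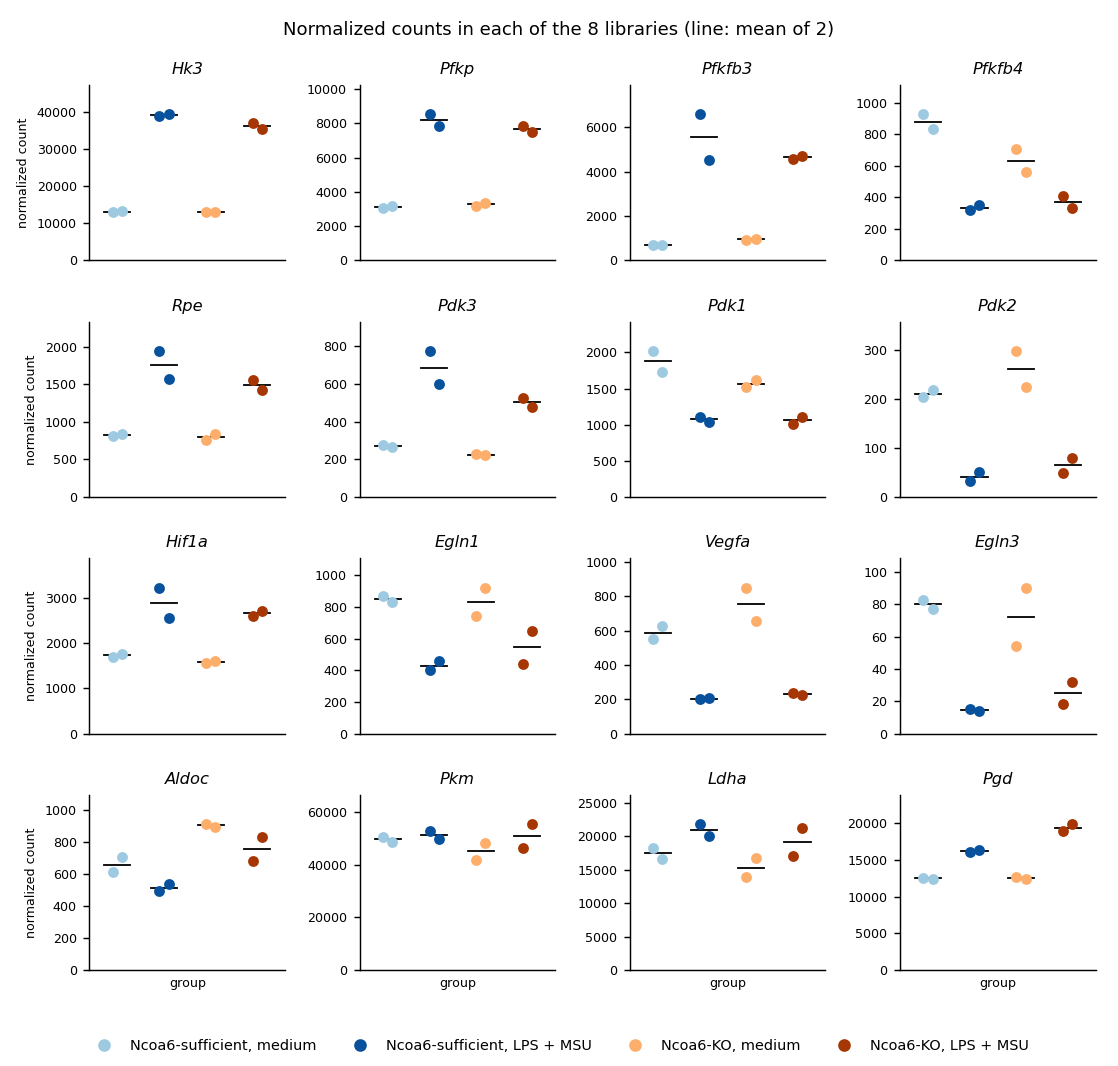
Normalized counts of 16 members in each of the 8 libraries (points, vertical axes from 0), with a line at the mean of the 2 libraries of a group. *Pfkfb3*, *Pfkp*, *Hk3*, *Rpe*, *Pdk3* and *Hif1a* are higher and *Pfkfb4*, *Pdk1*, *Pdk2*, *Egln1*, *Egln3* and *Vegfa* lower in the stimulated libraries of both genotypes, while *Pkm* and *Ldha* change little beside the spread of their replicates.

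In the PPP, *Rpe* and *Pgd* rose in both genotypes. *Pgd* encodes 6-phosphogluconate dehydrogenase, the second NADPH-yielding enzyme of the oxidative branch, and *Rpe* the epimerase that feeds ribulose 5-phosphate into the non-oxidative branch. *Rpe* had normalized counts of 814 and 833 in unstimulated and 1941 and 1567 in stimulated *Ncoa6*-sufficient BMDMs. The *Ncoa6*-KO libraries held 761 and 835 without and 1551 and 1423 with the stimulus. The conditions did not overlap, with log2 fold changes of 1.09 (standard error 0.113, adjusted p = 8.33e-06) and 0.90 (standard error 0.114, adjusted p = 4.40e-05). Under total counts alone *Rpe* was at 0.42 and 0.26, the second no longer called (adjusted p = 0.0517). *Pgd* had 12602 and 12433 in unstimulated and 16076 and 16347 in stimulated *Ncoa6*-sufficient BMDMs. For *Ncoa6*-KO BMDMs the values were 12631 and 12342 without and 18903 and 19897 with the stimulus. Both stimulated *Ncoa6*-KO libraries were above both stimulated *Ncoa6*-sufficient libraries, and all 4 were above the libraries with medium alone. The log2 fold changes of *Pgd* were 0.37 (standard error 0.0966, adjusted p = 0.00656) and 0.64 (standard error 0.0968, adjusted p = 0.000189), and under total counts alone -0.30 and 0.00. *Pgls*, the lactonase between the oxidative steps, had 1587 and 1622 in unstimulated and 1268 and 1241 in stimulated *Ncoa6*-sufficient BMDMs. Counts in *Ncoa6*-KO BMDMs were 1454 and 1476 without and 1418 and 1328 with the stimulus. In *Ncoa6*-sufficient BMDMs its conditions did not overlap and the change was -0.36 on the log2 scale (standard error 0.0836, adjusted p = 0.00369), a call that DESeq2 (adjusted p = 0.0764) and the fit without *Ncoa6*-sufficient LPS + MSU library 2 (adjusted p = 0.0565) did not make. The *Ncoa6*-KO value was -0.09 (95% interval -0.28 to 0.09, adjusted p = 0.375). *Tkt*, transketolase, had log2 fold changes of 0.21 (adjusted p = 0.0928) and 0.30 (adjusted p = 0.0222), and the second call was lost without *Ncoa6*-KO medium library 1 (0.0679) or either *Ncoa6*-KO LPS + MSU library (0.116 and 0.0582) and turned to -0.34 under total counts alone. *Taldo1* and *Rpia* were not called, with log2 fold changes from -0.19 to 0.14. *G6pdx*, which encodes the first enzyme of the oxidative branch and stands in the list of other pathway genes, measured 5618 and 5381 and then 5751 and 5321 in *Ncoa6*-sufficient BMDMs (log2 fold change 0.01, 95% interval -0.20 to 0.22).

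*Hif1a* rose while *Egln1*, *Egln3* and *Vegfa* fell. *Hif1a* (ENSMUSG00000021109, chr12:73901375-73947530 of GRCm38, forward strand) had normalized counts of 1686 and 1765 in unstimulated and 3227 and 2548 in stimulated *Ncoa6*-sufficient BMDMs. The corresponding *Ncoa6*-KO values were 1561 and 1609.6 without and 2595 and 2716 with the stimulus. All stimulated libraries were above those with medium alone, and the log2 fold changes were 0.74 (standard error 0.112, adjusted p = 0.00016) and 0.74 (standard error 0.112, adjusted p = 0.000171). These are RNA levels, and the protein, on which the hydroxylases act, was not measured in these libraries. *Egln1*, the main prolyl hydroxylase of HIF-1α, had 872 and 835 in unstimulated and 405 and 456 in stimulated *Ncoa6*-sufficient BMDMs. In *Ncoa6*-KO BMDMs these counts were 743 and 924 without and 442 and 651 with the stimulus. Its conditions did not overlap, and the log2 fold changes were -0.99 (standard error 0.17, adjusted p = 0.000433) and -0.61 (standard error 0.167, adjusted p = 0.0094). The call in *Ncoa6*-KO BMDMs was lost without medium library 2 (-0.44, adjusted p = 0.0695) or LPS + MSU library 1 (-0.36, adjusted p = 0.0937). *Egln3*, itself a known target of HIF-1, was expressed at a low level, with 82.6 and 77.4 in unstimulated and 15.2 and 13.8 in stimulated *Ncoa6*-sufficient BMDMs. *Ncoa6*-KO BMDMs had 54.2 and 90.4 without and 18.3 and 32.2 with the stimulus. The log2 fold changes were -2.45 (standard error 0.377, adjusted p = 0.000189) and -1.51 (standard error 0.345, adjusted p = 0.00322), with no overlap between conditions. *Vegfa* (ENSMUSG00000023951, chr17:46016993-46032369 of GRCm38, reverse strand), an angiogenic factor and a classic HIF-1 target, had 553 and 625 in unstimulated and 202 and 205 in stimulated *Ncoa6*-sufficient BMDMs. The *Ncoa6*-KO libraries held 851 and 659 without and 238 and 222 with the stimulus. Its stimulated libraries were all below those with medium alone, with log2 fold changes of -1.53 (standard error 0.146, adjusted p = 4.14e-06) and -1.71 (standard error 0.143, adjusted p = 1.49e-06). Of the counts per kb of the 3 hydroxylase genes, *Egln1* held 35.1% to 40.5% in unstimulated and 13.9% to 25.3% in stimulated libraries, and *Egln2*, which is no member, held 54.2% to 61.3% and 73.0% to 85.4%.

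The core of the HIF-1 binding site was looked for in the members' promoters, since known HIF-1 targets are among the genes that rose and among those that fell. RefSeq promoter windows of GRCm38.p6, 250 bases before to 50 after each start, were found for all 35 members, 51 windows in all, since some genes have several starts. The letters ACGTG or GCGTG, read on both strands, stood in 40 of the 51 windows (78.4%), beside 59.1% of the windows of tested genes and 43.8% of the windows of all genes. ACGTG is also part of the E-box CACGTG, and a match is a description, not a bound site. In *Ncoa6*-sufficient BMDMs the core stood in at least 1 window of 10 of 11 members that rose, 10 of 10 that fell and 12 of 14 that were not called, so these letters were about as frequent in each of the 3 groups. The windows at the outermost start of *Hk1* and *Vegfa* and the window of *Rpe* did not hold them. Stretches of 45 bases around a core are shown for 3 members that rose, 3 that fell and *Ldha*, which was not called. They were chosen after the values were seen, to set promoters of genes that moved in opposite directions side by side, and run 5′ to 3′ on the gene's strand, with each core, or its reverse complement, in capitals.
Pfkfb3 chr2:11553965-11554009 (reverse strand): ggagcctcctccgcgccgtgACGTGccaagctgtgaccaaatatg
Hk2 chr6:82774482-82774526 (reverse strand): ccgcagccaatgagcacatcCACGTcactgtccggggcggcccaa
Pdk3 chrX:93832179-93832223 (reverse strand): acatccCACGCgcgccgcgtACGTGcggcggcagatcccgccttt
Egln3 chr12:54204079-54204123 (reverse strand): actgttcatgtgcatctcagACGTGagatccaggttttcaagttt
Pdk1 chr2:71873126-71873170 (forward strand): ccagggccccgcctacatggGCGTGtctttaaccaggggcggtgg
Pdk2 chr11:95041472-95041516 (reverse strand): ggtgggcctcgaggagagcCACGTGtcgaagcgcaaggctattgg
Ldha chr7:46845750-46845794 (forward strand): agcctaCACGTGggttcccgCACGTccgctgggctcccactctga
The core at the centre of the stretch begins 60 bases before the start in *Pfkfb3*, 52 in *Hk2*, 53 in *Pdk3* and 34 in *Ldha*. It begins 229 bases before it in *Egln3*, 78 in *Pdk1* and 125 in *Pdk2*. The *Ldha* window held 7 matches and that of *Pdk3* 4, against 1 in the shown windows of *Pfkfb3* and *Egln3*, the members with the largest rise and the deepest fall in *Ncoa6*-sufficient BMDMs.

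The list of other genes of these pathways, chosen like the members with earlier results of the data known, held 65 genes, of which 54 passed the filter. With LPS + MSU 13 rose and 21 fell in *Ncoa6*-sufficient BMDMs (63.0%, beside 55.2% of all genes tested) and 15 rose and 19 fell in *Ncoa6*-KO BMDMs (63.0%, beside 53.1%). The median log2 fold change of the list was -0.02 and -0.13. With DESeq2's size factors the first split was 18 and 19, and with total counts alone 6 and 35. The largest change in the list was that of a glucose transporter. *Slc2a6* had normalized counts of 1077 and 1307 in unstimulated and 33596 and 33146 in stimulated *Ncoa6*-sufficient BMDMs. For *Ncoa6*-KO BMDMs the values were 1209.7 and 966 without and 33993 and 26055 with the stimulus. The conditions were apart by 28.0-fold and 27.6-fold (log2 fold changes 4.81 and 4.79, adjusted p = 3.12e-09 and 3.38e-09), and it held 34.3% to 41.6% of the counts per kb of *Slc2a1*, *Slc2a3* and *Slc2a6* in unstimulated and 85.0% to 89.7% in stimulated libraries. SLC2A6 is a transporter of lysosomal membranes known to rise in inflammatory macrophages. *Slc2a1*, the widely expressed GLUT1, rose from 1869.6 and 1789 to 5028 and 5093 in *Ncoa6*-sufficient BMDMs (log2 fold change 1.47, adjusted p = 4.87e-07). *Slc2a3*, the high-affinity GLUT3, fell there from 549 and 512 to 168 and 149 (log2 fold change -1.75, adjusted p = 4.42e-07). *Pfkfb2* fell like *Pfkfb4*, from 347 and 338 to 84.5 and 82.6 (log2 fold change -2.03, adjusted p = 3.76e-07). At the PDH step *Pdpr*, a regulatory subunit of the phosphatase that reactivates PDH, fell from 399 and 313 to 104 and 81.3 (log2 fold change -1.94, adjusted p = 3.89e-05).

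Known HIF-1 targets outside the members went in both directions. Of 17 tested, 3 rose and 7 fell without the knockout and 4 rose and 6 fell with it, which is 58.8% called in each genotype and near the 55.2% and 53.1% of all genes tested. *P4ha1*, a collagen prolyl hydroxylase, rose from 2345 and 2346 to 12891 and 12445 in *Ncoa6*-sufficient BMDMs (log2 fold change 2.43, adjusted p = 1.14e-08). *Ak4*, an adenylate kinase, rose from 84.8 and 55.9 to 301 and 289 (log2 fold change 2.06, adjusted p = 0.000225). Both were clear of their levels with medium alone. *Ankrd37* fell from 145 and 145 to 20.8 and 23.4 (log2 fold change -2.70, adjusted p = 5.17e-06). *Mxi1*, a MYC antagonist, fell from 504 and 537 to 139.9 and 123 (log2 fold change -1.99, adjusted p = 8.43e-07). Among the regulators, *Cited2*, which encodes a protein that competes with HIF-1α for the coactivators CBP and p300, rose from 1874 and 1992 to 11042 and 11466 (log2 fold change 2.54, adjusted p = 3.58e-09).

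The genes were then compared between *Ncoa6*-KO and *Ncoa6*-sufficient macrophages. Cre was present in every *Ncoa6*-KO mouse and in no *Ncoa6*-sufficient mouse. Effects of *Ncoa6* loss and of Cre at the *Lyz2* locus therefore cannot be told apart. In unstimulated cells edgeR called 0 of 35 members, beside 1.88% of all genes tested. An unadjusted p under 0.05 was reached by 9 members (25.7%), beside 12.8% of all genes tested. DESeq2 called 0 members there, beside 2.81% of all genes tested. With LPS + MSU 1 member was called, *Aldoc*, 1 of 35 beside 3.59% of all genes tested, and 6 (17.1%) had an unadjusted p under 0.05, beside 17.4% of all genes. *Aldoc* (ENSMUSG00000017390, chr11:78322968-78327781 of GRCm38, forward strand), the brain-type aldolase and here a minor one beside *Aldoa*, had normalized counts of 612 and 711 in unstimulated and 493 and 541 in stimulated *Ncoa6*-sufficient BMDMs. Counts in *Ncoa6*-KO BMDMs were 915 and 899 without and 686 and 837 with the stimulus. Both *Ncoa6*-KO libraries were above both *Ncoa6*-sufficient libraries under either condition. The log2 fold change of *Ncoa6*-KO against *Ncoa6*-sufficient BMDMs was 0.56 with LPS + MSU (standard error 0.125, adjusted p = 0.0367) and 0.46 with medium alone (standard error 0.118, adjusted p = 0.0871). Limma-voom did not make the call with LPS + MSU (adjusted p = 0.0595). It was also lost without *Ncoa6*-sufficient medium library 1 or 2 (log2 fold change 0.56 in each fit). The same held without *Ncoa6*-sufficient LPS + MSU library 1 or 2 (0.48 and 0.61) or *Ncoa6*-KO LPS + MSU library 2 (0.40). These fits also called a smaller share of all genes tested for this comparison. The fall of *Aldoc* with LPS + MSU in *Ncoa6*-sufficient BMDMs, at -0.35 (adjusted p = 0.0303), was likewise not called by DESeq2 (adjusted p = 0.207) or without medium library 2, LPS + MSU library 1 or LPS + MSU library 2 of that genotype (adjusted p 0.216, 0.231 and 0.0717).

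No member differed between genotypes by more than 0.47 (log2) in unstimulated cells, and among the values with LPS + MSU the one farthest from 0 was 0.79 for the low-count gene *Egln3* (95% interval -0.20 to 1.77). The interval stayed within a 1.5-fold change for 25 of 35 members in unstimulated and for 27 of 35 in stimulated libraries. The median over the members was -0.07 and 0.02 under the respective conditions, beside -0.03 and 0.00 over all genes tested. The 3 hexokinases, with log2 fold changes of -0.07, -0.03 and -0.01 unstimulated and -0.13, -0.14 and -0.12 stimulated, had intervals within that limit under both conditions. With medium alone the uncalled members with an unadjusted p under 0.05 were *Pfkfb3* (0.47), *Ldhb* (0.46), *Vegfa* (0.36), *Pfkm* (0.33) and *Pdha1* (0.23) on the higher side, and *Pfkfb4* (-0.47), *Eno1* (-0.30) and *Pdk1* (-0.26) on the lower side, besides *Aldoc*, with adjusted p from 0.114 to 0.342. With LPS + MSU these were *Ldhb* (0.51), *Pfkm* (0.42), *Pdha1* (0.27), *Pgd* (0.26) and *Pdk3* (-0.45), with adjusted p from 0.0979 to 0.192. Leaving out *Ncoa6*-sufficient LPS + MSU library 2 brought *Pdk3* to -0.64 (adjusted p = 0.0381) and *Pfkfb3* to -0.51 (adjusted p = 0.0395) past the threshold, from -0.26 for *Pfkfb3* with all libraries.

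**Figure D5:**
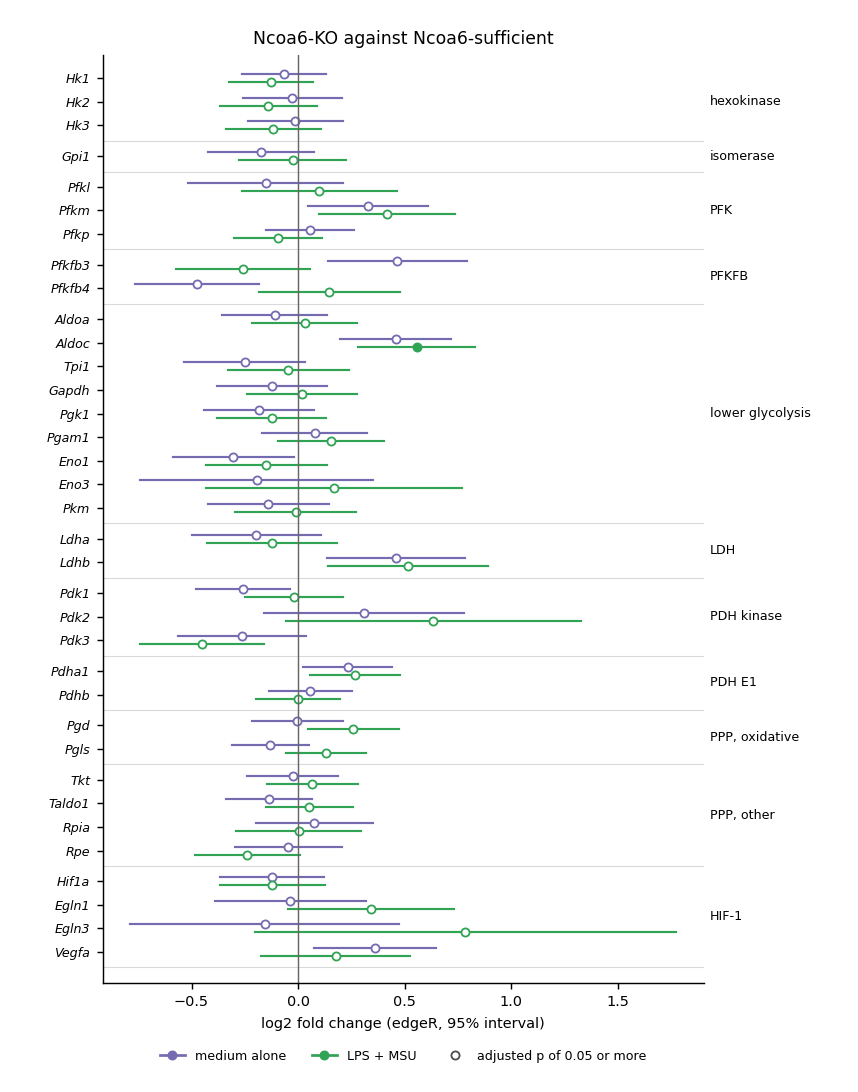
Log2 fold change of *Ncoa6*-KO against *Ncoa6*-sufficient BMDMs for the 35 members, by role, with medium alone (purple) and with LPS + MSU (green), with edgeR's 95% interval and filled circles where the adjusted p is under 0.05. *Aldoc* with LPS + MSU, at 0.56, is the single filled circle, and the wide intervals belong to the low-count genes *Egln3*, *Pdk2* and *Eno3*.

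The size of the response to LPS + MSU was not called different between genotypes for any member. The interaction gave 0 of 35 and 0 of all genes (0%) in edgeR, where 3 members and 1045 genes had an unadjusted p under 0.05, and DESeq2 called 43 genes and 0 members. The 3 members with the smallest p were *Pfkfb3*, *Pfkfb4* and *Pgls*. The response of *Pfkfb3* was 3.02 without and 2.29 with the knockout, a difference of -0.72 (95% interval -1.18 to -0.27, adjusted p = 0.548), and that of *Pfkfb4* was -1.40 and -0.78, a difference of 0.62 (0.18 to 1.06, adjusted p = 0.642). For both genes the *Ncoa6*-KO response had the same sign and lay nearer to 0, and neither difference was called. The difference for *Pfkfb3* was -0.48 (adjusted p = 1.00) without *Ncoa6*-sufficient LPS + MSU library 1, which had the highest *Pfkfb3* count, and -1.02 (adjusted p = 0.116) without library 2 of that group. With no filter on low counts edgeR called it, at -0.72 (adjusted p = 0.00178), as it did 1.09% of the 24645 genes then tested, and not *Pfkfb4* (adjusted p = 0.0723). For *Pgls* it was 0.26 (0.00 to 0.52, adjusted p = 0.839). The 4 comparisons share their groups, so these values are not independent of those above.

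Of the other pathway genes, *Slc2a3* was higher and *Slc16a3* lower in unstimulated *Ncoa6*-KO BMDMs, 2 of 54 beside 1.88% of all genes tested. With LPS + MSU *Slc2a3*, *Pgm2* and *Pcx* were higher, 3 of 54 beside 3.59%. *Slc2a3* measured 549 and 512 normalized counts in unstimulated *Ncoa6*-sufficient and 827 and 771 in unstimulated *Ncoa6*-KO BMDMs (log2 fold change 0.59, adjusted p = 0.0251), and 168 and 149 against 226 and 260.2 with LPS + MSU (0.62, adjusted p = 0.0342). *Slc16a3*, the lactate exporter MCT4, measured 2186 and 2004 without and 1279 and 1464 with the knockout in unstimulated cells (-0.61, adjusted p = 0.0298). The genotypes did not overlap in either gene. *Pcx*, pyruvate carboxylase, measured 169 and 209 without and 269 and 336 with the knockout in stimulated cells (0.68, adjusted p = 0.0413). *Pgm2*, a phosphoglucomutase, measured 478 and 486 without and 627 and 652 with the knockout (0.41, adjusted p = 0.0449). DESeq2 called both genes named for unstimulated cells and 0 of the 3 named for LPS + MSU (adjusted p from 0.0515 to 0.123). Every one of the 5 calls was lost on leaving out single libraries. Except without *Ncoa6*-KO medium library 1, these fits also called a smaller share of all genes tested for the same comparison. With medium alone *Slc2a3* was lost without any one of the 4 libraries compared (adjusted p up to 0.234), and *Slc16a3* without any one of these or either *Ncoa6*-sufficient LPS + MSU library (up to 0.332). With LPS + MSU *Slc2a3* and *Pgm2* were lost without any one of the *Ncoa6*-sufficient or either *Ncoa6*-KO LPS + MSU library (up to 0.256 and 0.272), and *Pcx* without any one of the *Ncoa6*-sufficient libraries or *Ncoa6*-KO LPS + MSU library 2 (up to 0.317).

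Replicates of *Ncoa6*-KO BMDMs differed in the glycolytic genes. Of the 18 glycolysis and LDH members, 14 were higher in library 2 than in library 1 under each condition, with a median log2 ratio of 0.15 unstimulated and 0.18 stimulated. In *Ncoa6*-sufficient BMDMs the numbers were 4 and 8 of 18. Of the 17625 genes tested, 8233 were higher in library 2 of unstimulated and 8963 in library 2 of stimulated *Ncoa6*-KO BMDMs. Their median log2 ratios were -0.013 and 0.006. The summed stromal markers were also higher in library 2, with normalized counts of 140.4 and 457 in unstimulated libraries 1 and 2 and 333 and 821 in stimulated libraries 1 and 2. All 5 markers were higher in unstimulated library 2 and 3 of 5 in stimulated library 2, where the collagens *Col1a1*, *Col1a2* and *Col3a1* were higher and *Dcn* (39.2 and 19.6) and *Pdgfrb* (137 and 130.1) lower. *Col1a1* had 58.4 and 185 normalized counts in the unstimulated ones. In *Ncoa6*-sufficient BMDMs the sums were 426 and 385 in unstimulated and 950.4 and 905 in stimulated libraries. The part of stromal cells in the members' values was not tested.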

How the data were processed

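RNA-seq libraries were made from BMDMs of *Ncoa6*-sufficient and *Ncoa6*-KO mice with medium alone or LPS + MSU, 2 libraries a group and 8 in all. The authors prepared stranded poly(A) libraries, aligned read pairs with STAR 2.7.3a and estimated counts per gene with RSEM 1.3.3 (GRCm38, release 101), and the deposited values are these expected counts, without normalization. Groups followed the labels. The members and the other gene lists, the tests and the rule for named genes were chosen with earlier results of these data known.

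Counts were rounded, genes were kept where all libraries together had at least 10 counts, and edgeR 4.0.16 in R 4.3.3 fitted the 4 groups in 1 model (TMM, quasi-likelihood, 4 residual degrees of freedom), with Benjamini-Hochberg adjustment over 17625 genes. The p-values measure the spread between libraries of the same group, which came from different mice. Whether a mouse gave cells to both conditions was not stated, and the main fit took the conditions as unpaired. Stimulus effects per genotype, knockout effects per condition and their interaction were tested, and a gene was called at an adjusted p under 0.05. Values per library are given for members called between genotypes, the called members with the 8 strongest rises and the 8 strongest falls in *Ncoa6*-sufficient BMDMs (mean normalized count 50 or more), the 3 with the smallest interaction p, and *Hif1a*, *Hk1*, *Hk2*, *Hk3*, *Pfkl*, *Pfkp*, *Pkm*, *Ldha* and *Pgd*. *Egln3*, with a mean under 50, and *G6pdx* were added after their values were seen. Other pathway genes were named when called between genotypes or among the 5 up and 5 down with the largest stimulus effect. Counts per kb used the union of exons in GENCODE M21 (GRCm38).

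The alternatives were DESeq2 1.42.0, its size factors in edgeR, filterByExpr, no filter, limma-voom (limma 3.58.1) on unrounded counts, a replicate block, only the libraries compared, and leaving out each library. In simulated data with 17625 genes, a small set of higher-count genes was changed up or down, and all others stayed equal between groups. For LPS + MSU in *Ncoa6*-sufficient BMDMs 91 genes were changed by a log2 of 1 and 109 by 2. EdgeR recovered 86.8% and 99.1% of these, with 18 false calls. With the same 3 quantities the knockout simulation gave 91.8%, 99.0% and 16 in unstimulated and 90.8%, 100% and 18 in stimulated cells. In the data 55.2% of genes tested were called for that stimulus. The simulation changed far fewer genes, so it does not show how the fit or the scaling behaves under so broad a change. Counting limits the low genes: *Egln3* had 13.8 to 90.4 normalized counts per library.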

Additional observations from a re-analysis of the deposited data

Results flagged for a closer look

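Both *Ncoa6*-KO libraries lay on one side of both *Ncoa6*-sufficient libraries with medium alone and on the other side with LPS + MSU for 2 members, and the difference between the conditions was tested as an interaction in edgeR. For *Pgls* the knockout effect was -0.13 with medium alone and 0.13 with LPS + MSU, a difference of 0.26 (adjusted p = 0.839). For *Taldo1*, transaldolase of the PPP, it was -0.14 and 0.05, a difference of 0.19 (adjusted p = 0.919). Among the other pathway genes the same was seen for *Dlat*, the E2 subunit of PDH, with a difference of -0.23 (adjusted p = 0.896), for *Arnt*, which encodes HIF-1β, with -0.23 (adjusted p = 0.883), and for the HIF-1 target *Ddit4*, with -0.74 (adjusted p = 0.891). None of the 5 differences was called. Such a crossing was found for 2 of 35 members (5.71%) and 3 of 54 other pathway genes (5.56%), beside 663 of 17625 genes tested (3.76%).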

How the results depend on the processing

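With 2 libraries a group and 4 residual degrees of freedom, small knockout effects are beyond the reach of these data, and the low-count members *Egln3*, *Pdk2* and *Eno3* have wide intervals. A fit without 1 library leaves a group of 1, which is assumed to vary like the others. Over 91 tested results, each the log2 fold change of a single named gene in a single comparison, the alternatives gave 1544 values. Of these, 1392 kept direction and side of the threshold, 82 lost the call, 56 gained it and 14 turned direction.

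Scaling by library size only, chosen after the data were seen, gave 32 called members with LPS + MSU in *Ncoa6*-sufficient BMDMs in place of 21, where 68.9% of all genes tested were called in place of 55.2%. It turned 11 members there and 12 in *Ncoa6*-KO BMDMs, all from higher to lower. These were *Pfkl* (-0.23), *Pgk1* (-0.24), *Pgd* (-0.30), *Pkm* (-0.62), *Ldha* (-0.41), *Gapdh* (-0.48), *Tkt* (-0.47), *Aldoa* (-0.54), *Eno1* (-0.55), *Pdhb* (-0.52) and *Rpia* (-0.53) in the former and *Gapdh* (-0.30), *Pgk1* (-0.14), *Tkt* (-0.34), *Pkm* (-0.46), *Ldha* (-0.30), *Aldoa* (-0.37), *Tpi1* (-0.58), *Pgam1* (-0.56), *Eno1* (-0.36), *Eno3* (-0.43), *Pdhb* (-0.54) and *Rpia* (-0.57) in the latter. Members called between genotypes with medium alone, 0 in all libraries together, were 3 with no filter, 1 in a fit of only the 4 libraries compared, and 0 to 1 leaving out a library, with 1 without *Ncoa6*-sufficient LPS + MSU library 1 or 2. With LPS + MSU, where 1 was called, the counts were 2 with no filter, 0 with limma-voom, 0 in only the 4 libraries compared and 0 to 2 leaving out a library. The 0 came without any *Ncoa6*-sufficient library except LPS + MSU library 2, whose omission gave 2, and without *Ncoa6*-KO LPS + MSU library 2. The interaction gave 1 member with no filter. Over all genes tested, the fit with no filter called 4.67% for the knockout with medium alone, 6.54% with LPS + MSU and 1.09% for the interaction. The main fit called 1.88%, 3.59% and 0%, so more genes were called in general. The fit of only the 4 libraries compared called 1.53% and 2.25% for the knockout. Leaving out any *Ncoa6*-sufficient library or an *Ncoa6*-KO LPS + MSU library lowered the share called in both knockout comparisons. Leaving out an *Ncoa6*-KO medium library raised it with LPS + MSU. With LPS + MSU DESeq2 called 4.82%, limma-voom 2.5% and library size only 3.96%. Of the other pathway genes, 2 with medium alone became 4 with no filter and 0 to 2 leaving out a library, and 3 with LPS + MSU became 0 with DESeq2, limma-voom or only the 4 libraries, 5 under library size only, 8 with no filter and 0 to 4 leaving out a library. For these genes 0 came with medium alone without any one unstimulated library, and with LPS + MSU without any one *Ncoa6*-sufficient library or *Ncoa6*-KO LPS + MSU library 2. The knockout effect of *Pfkfb3* with LPS + MSU ran from -0.51 without *Ncoa6*-sufficient LPS + MSU library 2 to 0.024 without library 1, and that of *Pfkfb4* from -0.023 without *Ncoa6*-KO LPS + MSU library 1 to 0.28 without library 2. Beyond what each fit's own samples and genes set, the cause was not tested.

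Replicate numbers 1 and 2 recur in every group, and no source says that a number marks a mouse. The correlation of the deviations of same-numbered libraries was 0.123 between conditions of *Ncoa6*-sufficient BMDMs, 0.153 for *Ncoa6*-KO BMDMs and 0.006 to 0.049 between genotypes. With the number as a replicate block across all groups, 24 and 25 members were called for the stimulus, beside 58% and 55.9% of all genes tested. For the knockout 3 members were called with medium alone, 2 with LPS + MSU and 6 other pathway genes with LPS + MSU. The knockout calls over all genes tested rose to 5.80% in unstimulated and 8.69% in stimulated cells. With a replicate block within each genotype the numbers of genes called were 26, 26, 10, 6 and 13 in the same order. There were also 8 other pathway genes with medium alone and 2 members for the interaction, *Pfkfb3* (-0.71, edgeR adjusted p = 0.00183) and *Pfkfb4* (0.62, adjusted p = 0.0127). Over all genes tested this block called 60.2% and 58.8% for the stimulus, 10.7% and 14.7% for the knockout and 2.52% for the interaction.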

Other observations

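Among pathway genes of low counts, which the rule for named genes left out and which were chosen here after their values were seen, *Adm*, *Pgam2* and *Ddit4* had stimulus effects called in both genotypes. *Adm*, the vasodilator adrenomedullin and a HIF-1 target, had 6.00 and 10.3 normalized counts in unstimulated and 24.9 and 22.0 in stimulated *Ncoa6*-sufficient BMDMs, and 7.65 and 10.5 against 53.6 and 50.4 in *Ncoa6*-KO BMDMs. It rose by 1.53 and 2.52 on the log2 scale (edgeR, adjusted p = 0.0107 and 0.000219), and the first call was lost under 2 of the 17 alternatives tried. *Pgam2*, the muscle phosphoglycerate mutase, rose by 2.54 and 2.01 (adjusted p = 0.000325 and 0.00123), while *Pgam1* was called in neither genotype. *Ddit4*, an inhibitor of mTORC1, had log2 fold changes of -1.90 and -2.64 (adjusted p = 0.000101 and 1.18e-05) and fell from 71.3 and 68.8 to 16.6 and 20.7 in *Ncoa6*-sufficient BMDMs.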
